A study of Mus musculus with 48 samples.

Results

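The copine family was represented by 9 genes, Cpne1 to Cpne9, out of the 15782 genes listed in the Q3-normalized tables of the 4 brain regions. The members were chosen by name. The family was picked because, among mice given saline, Cpne7 was lower in CA of flight mice than of ground mice. The values of that comparison are therefore given here as a description. The assay was GeoMx digital spatial profiling (DSP), in which tagged probes are hybridized to a tissue section and the tags are released by UV light from a chosen area of illumination (AOI) and counted. Male C57BL/6 mice, 10 weeks old at the start, either spent 35 days aboard the space station (FLT) or stayed in flight hardware cages on the ground (GC), where the protocol began 3 days later. Each set was given either saline (SAL) or BuOE, a manganese porphyrin that mimics superoxide dismutase, at 1 mg/kg in 0.2 mL under the skin from 7 days before launch and then every week. Flight mice reached the laboratory within 20 hours of splashdown. The 4 groups (GC-SAL, FLT-SAL, GC-BuOE and FLT-BuOE) had 3 mice each, and each mouse gave 1 AOI in CA (labelled as Cornu Ammonis 1 of the hippocampus), DG (dentate gyrus), FCT (frontal cortex) and CT (cortex), which made 48 AOIs from 12 mice. Sections of the 3 mice of a group lay on 1 slide, so slide and group cannot be told apart, while the 4 regions of a mouse lay on the same slide.

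Copines are cytosolic proteins with a pair of C2 domains, which bind phospholipids when calcium rises, followed by a von Willebrand factor A domain that binds other proteins. They move to membranes on calcium entry and carry their partners with them. In the brain the best known member is copine 6, which is enriched in hippocampal neurons, follows calcium entry through NMDA receptors to the membrane of dendritic spines, and there brings the GTPase Rac1 to act on the actin cytoskeleton. Copine 1 has been linked to neuronal differentiation of progenitor cells, copine 3 to the receptor ErbB2 and cell migration, copine 4 to retinal ganglion cells, and copine 7 to the differentiation of tooth-forming cells.

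Since the family shares much of its sequence, the coding sequences were compared to see how far a probe could mistake one copine for another. Coding sequences came from the GENCODE annotation of GRCm38, the longest complete one of each gene, and bases were counted from the A of the start codon. They had 1602 to 1782 bases, and identity over the aligned bases of the 36 pairs ran from 60.7% (Cpne7 and Cpne8) to 75.4% (Cpne5 and Cpne9), with 71.0% for Cpne4 and Cpne7 and 69.4% for Cpne6 and Cpne7. The longest run of identical bases was 31, between Cpne5 and Cpne6, and the median over the 36 pairs was 17. Within 50 bases without gaps the most alike stretch of a pair matched at 38 to 47 positions. The windows below are those of Cpne7 with its nearest relatives, Cpne4 and Cpne6, and of the closest pair, Cpne5 and Cpne9, with capitals at the positions where the pair differs, and all lie in coding exons.
Cpne4, chr9:105026778-105026827, plus strand, exon 15 of 16: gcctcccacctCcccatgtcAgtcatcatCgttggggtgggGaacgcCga
Cpne7, chr8:123133684-123133733, plus strand, exon 14 of 15: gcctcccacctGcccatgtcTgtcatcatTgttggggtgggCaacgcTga
Cpne6, chr14:55514246-55514295, plus strand, exon 8 of 17: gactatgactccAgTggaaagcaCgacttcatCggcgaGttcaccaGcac
Cpne7, chr8:123126645-123126694, plus strand, exon 7 of 15: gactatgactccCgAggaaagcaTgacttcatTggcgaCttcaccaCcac
Cpne5, chr17:29184007-29188321, minus strand, across exons 9 and 10 of 21: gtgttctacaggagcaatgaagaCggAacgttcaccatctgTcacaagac
Cpne9, chr6:113290242-113290425, plus strand, across exons 9 and 10 of 21: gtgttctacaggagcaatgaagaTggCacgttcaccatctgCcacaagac
The windows of Cpne7 matched those of Cpne4 at 45 and of Cpne6 at 44 of 50 positions, and those of Cpne5 and Cpne9 matched at 47. The probe sequences were not used here, so whether a copine probe lies in such a window is not known. Each of the 9 copines matched the counts of exactly 1 probe, and since probes differ in how well they bind, levels are compared below between samples of a gene and not between genes.

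The AOIs held 322629 to 1579380 probe counts (median 652040), and the FLT-SAL slide was counted most deeply. Each AOI had been scaled to the same upper quartile (Q3 normalization), and the background, read from negative-control probes without a target in the mouse, stood at 16.1 to 20.9 Q3-normalized counts in CA, 9.24 to 13.5 in DG, 12.1 to 18.0 in FCT and 13.3 to 16.8 in CT. Background was thus higher in every AOI of CA than in any AOI of DG. Cpne7 exceeded 1.5 times the negative control of its AOI in 48 of 48 AOIs, Cpne6 in 47, Cpne5 in 44, Cpne1 in 43, Cpne8 in 41, Cpne2 and Cpne9 in 35 each, Cpne3 in 32 and Cpne4 in 28. Cpne4 did so in 0 of 12 AOIs of CA, where its mean was 0.949 times the negative control, and in 12 of 12 of DG. The region labels were checked on markers. All 5 CA1 pyramidal cell markers (such as Wfs1, 91.8 against 31.1 Q3-normalized counts) were called higher in CA than in DG, beside 1.69% of all genes. Of 7 dentate granule cell markers (such as Prox1, 112 against 32.2), 6 were called higher in DG than in CA, beside 2.41% of all genes. In CA the 6 CA2 markers stood at 1.28 (Map3k15) to 1.96 (Necab2) times the negative control and the 6 CA3 markers at 1.16 (Grik4) to 3.62 (Crym). Of these 12 genes Crym was called higher in CA than in DG, while Pcp4 (171 in DG against 32.1 in CA) and Grik4 (36.6 against 21.6) were called higher in DG.

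**Figure D1:**
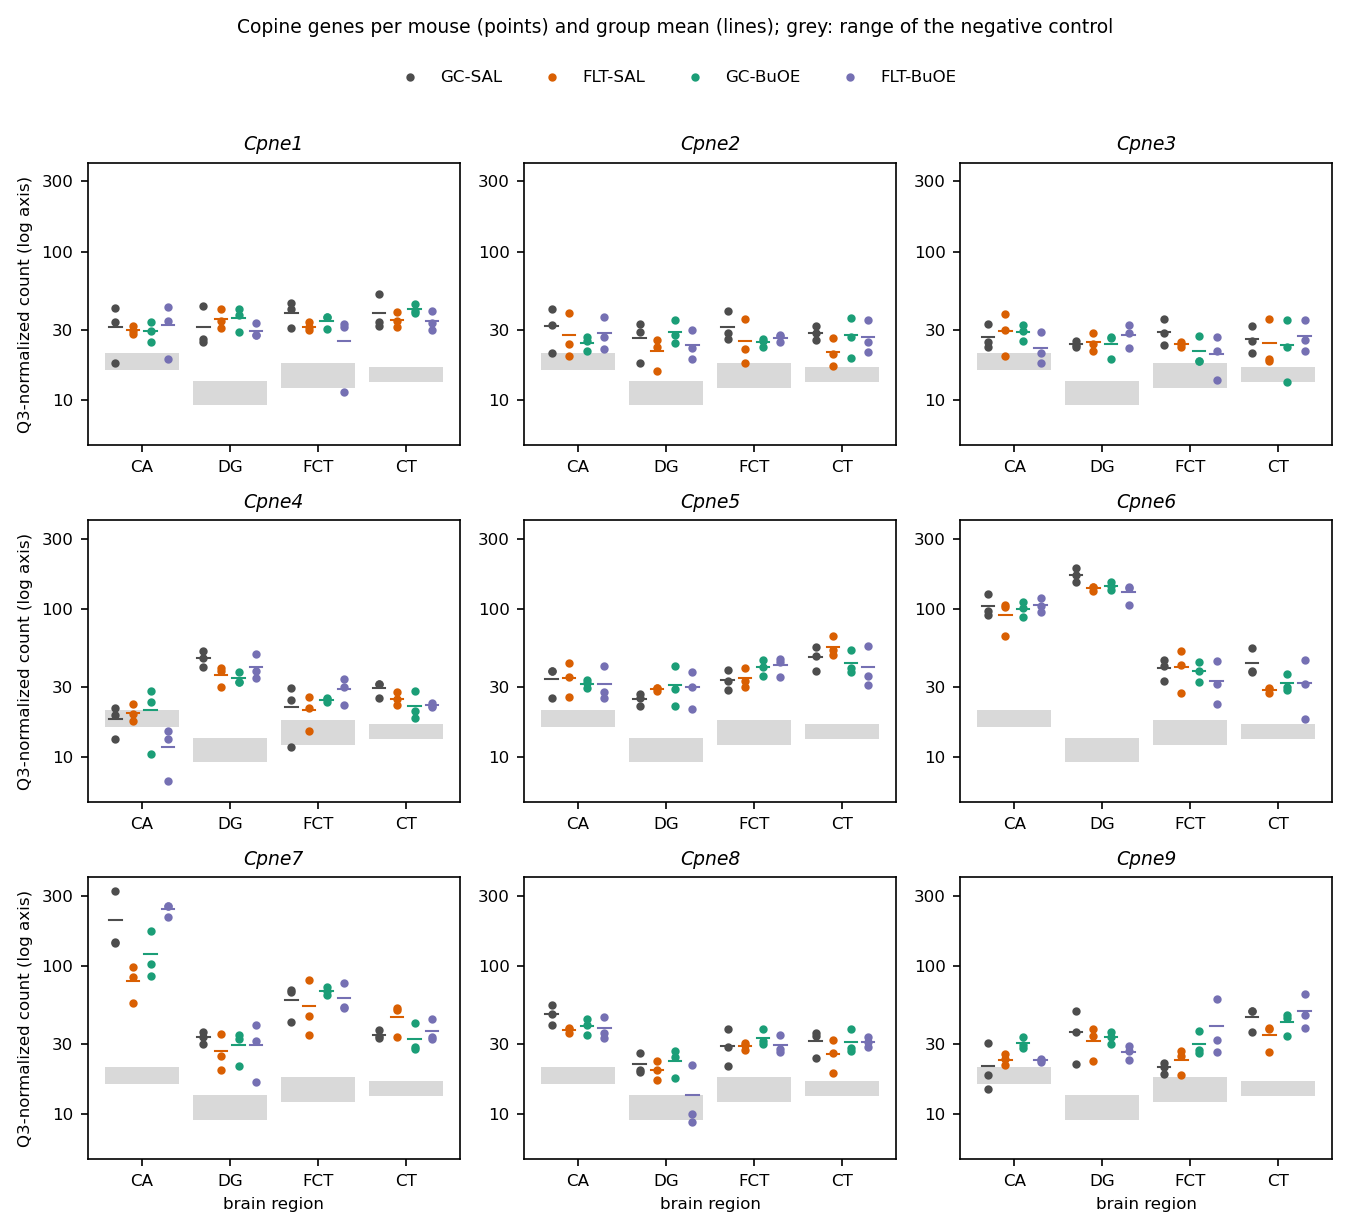
Q3-normalized counts (log axis) of the 9 copines in the 4 brain regions, with a point for each mouse, a line at each group mean and a grey band for the range of the negative control in that region. Cpne6 stands far above the band in CA and DG, Cpne7 stands highest and spreads most in CA, from 56.5 to 322, and Cpne4 lies on the band in CA.

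The first question was in which regions each copine was expressed. Region against region was tested within mice by limma on log2(Q3-normalized count + 1), with the mouse as a block and Benjamini-Hochberg adjustment over all 15782 genes, and a gene was called where the adjusted p was below 0.05 and the difference larger than 1.5-fold. Of the 9 copines, 3 were called between DG and CA (4.1% of all genes), with 1 higher in DG (2.41%) and 2 lower (1.69%). Between FCT and CA 2 were called (3.28%), with 0 higher in FCT (2.1%) and 2 lower (1.17%), and between CT and CA 3 (3.98%), with 1 higher in CT (2.93%) and 2 lower (1.05%). Between FCT and DG 4 were called (4.54%), with 2 higher in FCT (2.69%) and 2 lower (1.86%), and between CT and DG 4 (5.79%), with 2 higher in CT (3.6%) and 2 lower (2.19%). Between the cortical regions 2 were called (0.101%), with 1 higher in CT (0.0444%) and 1 lower (0.057%). The calls were spread over 6 genes, Cpne4 to Cpne9, while Cpne1, Cpne2 and Cpne3 were called between no regions.

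Cpne7 was highest in CA. Its Q3-normalized count over the 12 mice had a low of 56.5, a median of 145 and a high of 322 in CA, against 34.3, 65.4 and 80.9 in FCT, 27.7, 33.5 and 52.4 in CT and 16.7, 31.8 and 40.02 in DG. Every mouse had more Cpne7 in CA than in its own DG, FCT and CT. The log2 difference from CA was -2.27 in DG (SE 0.14, 95% interval -2.54 to -2.001, adjusted p = 1.8e-28, limma), -1.93 in CT (SE 0.14, adjusted p = 8.9e-24) and -1.26 in FCT (SE 0.14, adjusted p = 1.9e-13). This fit includes the saline AOIs of CA whose values chose the gene. The calls against CA were also made in BuOE mice alone, which took no part in that choice. Cpne7 was also higher in FCT than in DG by 1.01 (12 of 12 mice, adjusted p = 8.8e-10, limma) and lower in CT than in FCT by 0.67 on the log2 scale in 10 of 12 mice (adjusted p = 0.0011, limma). The latter call was lost with the own spread of the gene (adjusted p = 0.14), with robust moderation (adjusted p = 0.12) and in saline mice alone (-0.46, adjusted p = 0.40, all limma). CT and DG, the lowest of the 4, did not differ by the call (log2 difference 0.34, interval 0.07 to 0.60, adjusted p = 0.064, limma).

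Cpne6, the copine of dendritic spines, was high in both hippocampal regions. It ran from 107 to 190 in DG (median 142) and from 65.9 to 127 in CA (median 103), and these ranges overlapped. In FCT it ran from 22.9 to 52.6 (median 39.9) and in CT from 18.1 to 54.9 (median 30.4). Every AOI of hippocampus thus lay above every AOI of cortex, and the share of all genes with this pattern was not counted. The log2 difference was -2.11 for CT against DG, -1.94 for FCT against DG, -1.58 for CT against CA and -1.41 for FCT against CA, each with an SE of 0.09 and in 12 of 12 mice (largest adjusted p = 3.4e-26, limma). DG exceeded CA in 12 of 12 mice by 0.53 (SE 0.09, adjusted p = 1.2e-06, limma), which is short of the fold threshold, though it was called in saline mice alone (0.66, adjusted p = 8.5e-05) and with background subtracted (0.72, adjusted p = 1.5e-04). FCT and CT were not called apart (log2 difference -0.17, interval -0.35 to 0.01, adjusted p = 0.62).

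Cpne4 and Cpne8 stood in opposite order in the hippocampus. Cpne4 ran from 30.02 to 52.4 in DG and from 6.96 to 28.0 in CA, and it was higher in DG by 1.18 (SE 0.13, 12 of 12 mice, adjusted p = 9.3e-13, limma). Cpne8 ran from 8.89 to 26.7 in DG and from 33.1 to 54.8 in CA, and it was lower in DG (log2 difference -1.06, SE 0.11, 12 of 12 mice, adjusted p = 1.9e-13). Neither gene overlapped between the AOIs of these regions, although background was higher in CA, the region low in Cpne4. Cpne4 was not above background in CA, so the size of its differences from CA depends on how background is treated, and with background subtracted the log2 difference from DG was 4.16. In cortex the means of both lay between the hippocampal means. Cpne4 was lower than in DG by 0.72 in FCT and by 0.65 in CT on the log2 scale (12 of 12 mice each), and Cpne8 was higher than in DG by 0.64 in FCT (11 of 12 mice) and 0.62 in CT (10 of 12), with a largest adjusted p of 3.6e-05 (limma). The Cpne8 calls sat near the fold threshold: edgeR gave 0.58 for FCT and 0.53 for CT, under it, and without FLT-BuOE mouse 2 or mouse 3 limma gave 0.58 and 0.57 for FCT and 0.53 both times for CT. In saline mice alone they were 0.45 and 0.41 (adjusted p = 0.036 and 0.054). The Cpne4 calls were lost in BuOE mice alone for FCT (-0.48, adjusted p = 0.10) and in saline mice alone for CT (-0.58, adjusted p = 0.0073, limma). From CA to FCT, Cpne4 differed by 0.45 (adjusted p = 0.0076) and Cpne8 by -0.42 (adjusted p = 0.0041, limma), both short of the fold threshold. That of Cpne4 was called with background subtracted (2.31, adjusted p = 6.6e-06) and in BuOE mice alone (0.80, adjusted p = 0.0014, limma).

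Cpne9 and Cpne5 had their highest means in CT. Cpne9 ran from 26.5 to 64.6 in CT (median 41.6), from 22.01 to 49.7 in DG, from 18.6 to 60.03 in FCT and from 14.8 to 33.5 in CA. Every mouse had more Cpne9 in CT than in CA and in FCT, by 0.77 (SE 0.12, adjusted p = 1.1e-07, limma) and 0.62 (SE 0.12, adjusted p = 7.1e-04) on the log2 scale. Leaving out GC-SAL mouse 1 or mouse 2 brought the difference from FCT to 0.56 and 0.55, under the fold threshold. In BuOE mice alone it was 0.43 (adjusted p = 0.76, limma). Cpne5 ran from 31.0 to 65.5 in CT (median 48.8), from 28.4 to 46.2 in FCT, from 25.2 to 43.6 in CA and from 21.3 to 41.3 in DG. It was called between CT and DG alone, with a log2 difference of 0.69 (SE 0.11, 12 of 12 mice, adjusted p = 8.8e-08, limma), which was 0.48 and under the fold threshold in BuOE mice alone. In that fit neighbours in the order CT, FCT, CA, DG were not called (adjusted p = 0.18 to 0.24). The order of CA and DG depends on background, since the mean of Cpne5 was 1.76 times the negative control in CA and 2.54 times in DG. In saline mice alone CT was also called above FCT (0.59, adjusted p = 0.016) and above CA (0.59, adjusted p = 0.0011, limma). With background subtracted, Cpne5 was called between CT and CA (1.27, adjusted p = 3.3e-06, limma) and between FCT and CA.

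Cpne1, Cpne2 and Cpne3 were at similar low levels in all 4 regions. Region means ran from 30.6 to 37.4 for Cpne1, from 25.2 to 28.0 for Cpne2 and from 23.8 to 26.9 for Cpne3. The largest difference among them was that of Cpne1 between CT and CA (0.31, interval 0.06 to 0.55, adjusted p = 0.067, limma). These genes were at 1.44 to 2.95 times the negative control in their region means, and background was not subtracted. With the negative control of each AOI subtracted, all 3 were called between DG and CA, and Cpne1 between CT and CA (log2 difference 1.37), in fits that also called 8121 and 3565 of all genes where the fits without subtraction called 647 and 628.

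**Figure D2:**
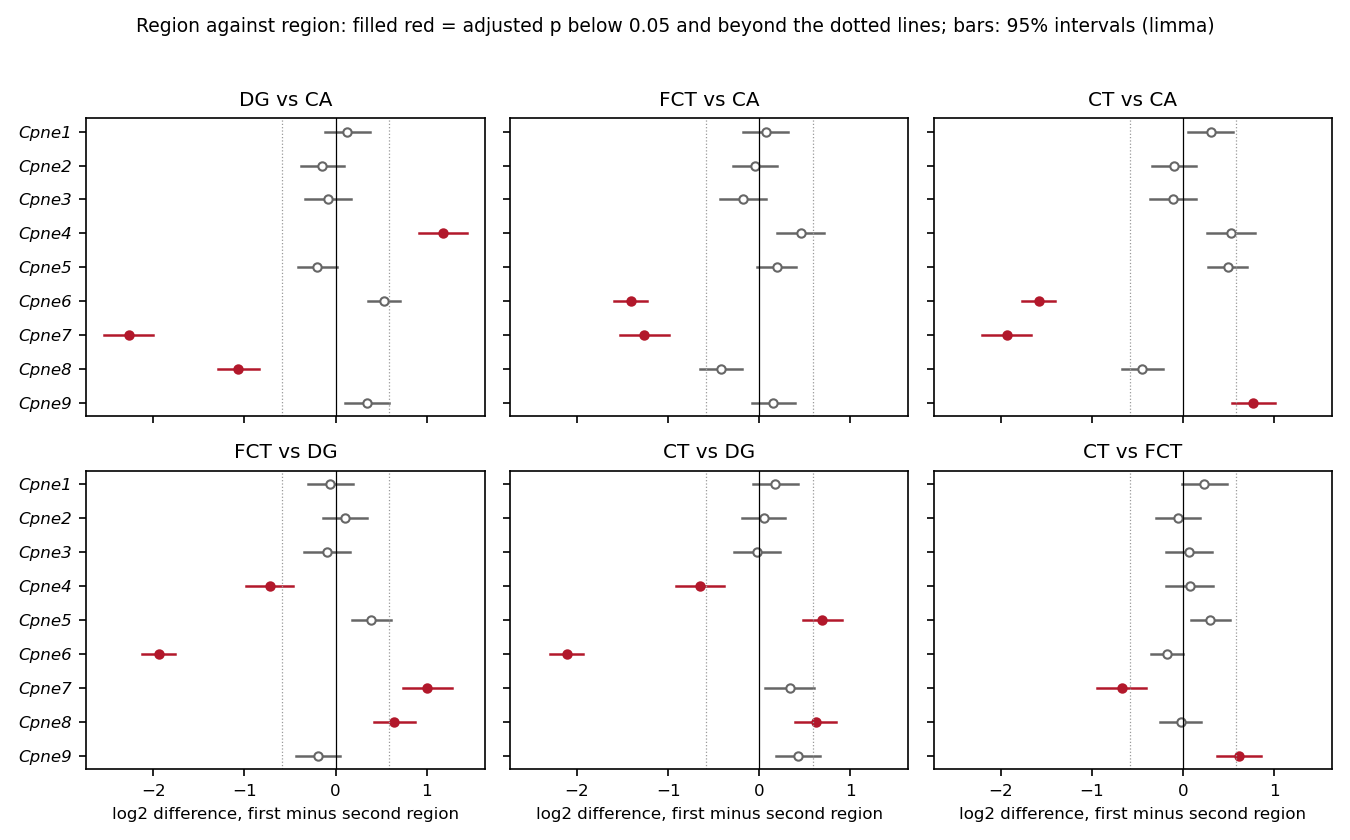
Log2 difference of each copine between regions (x axis, first region minus second) with 95% intervals from limma, in a panel for each of the 6 pairs of regions. Filled red points passed an adjusted p below 0.05 and the dotted 1.5-fold threshold. Cpne7 lies far to the left in all panels against CA (-2.27, -1.26 and -1.93), and Cpne6 in the 4 panels of cortex against hippocampus.

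Markers of several cell types moved with the regions too. Of 7 oligodendrocyte markers, 5 were called higher in FCT than in CA, where 2.1% of all genes were called higher. So were 3 of 6 neuronal and 3 of 7 GABAergic interneuron markers. Of 5 CA1 markers, 4 were called lower, beside 1.17% of all genes. Some other lists went both ways or did not move. Of 4 deep cortical layer markers 2 were called higher and 1 lower, of 7 astrocyte markers 1 and 1, and of 7 microglia markers 0. The part of cell composition in the copine differences was not tested, and in such sections fewer cells of a type and less RNA in each cell cannot be told apart.

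Genes with a pattern like a copine were taken as the 3 with the highest Pearson correlation over the 48 AOIs, among 13828 genes above background. These correlations are descriptions, since AOIs share mice, slides and regions. Cpne6 was followed most closely, by Zbtb20 (r = 0.92), a transcription factor of hippocampal neurons, Nr3c2 (r = 0.91), the mineralocorticoid receptor, and Doc2b (r = 0.91), another C2-domain calcium sensor. Zbtb20 had the region order of Cpne6, with means of 149 Q3-normalized counts in DG, 94.4 in CA, 30.9 in FCT and 30.8 in CT. Cpne7 was followed by Gpr161 (r = 0.82), a receptor of the primary cilium, the transcript Gm2115 (r = 0.78) and Sstr4 (r = 0.78), a somatostatin receptor. Gpr161 stood at 67.1 in CA and 20.7 in DG, and Sstr4 at 82.9 and 27.6. Sstr4 was also near Cpne8 (r = 0.70), after Ociad2 (r = 0.73) and Ccdc88c (r = 0.72). The genes nearest Cpne9 were Extl3 (r = 0.74), an enzyme of heparan sulfate synthesis, Jdp2 (r = 0.71), an AP-1 family repressor, and Cux2 (r = 0.66), a transcription factor of upper cortical layers. Those nearest Cpne5 were Vgf (r = 0.73), a neuropeptide precursor, Cend1 (r = 0.71) and Apbb1 (r = 0.70), an adaptor of the amyloid precursor protein, and those nearest Cpne4 were Chic2 (r = 0.77), Clstn2 (r = 0.76) and the ribosomal protein gene Rpl15 (r = 0.76). The highest values were lower for Cpne1 (Scmh1, r = 0.62, then Depdc5 and Ubr7 at 0.54 each), Cpne2 (9430069I07Rik, r = 0.56, Dmrta1 and Eef1aknmt, 0.52 each) and Cpne3 (Marco, r = 0.55, Qrich2, 0.54, and Mpped2, 0.53). Among the copines themselves the closest pair over 48 AOIs was Cpne7 and Cpne8 (r = 0.61), and the most opposite were Cpne4 and Cpne7 (r = -0.65) and Cpne5 and Cpne6 (r = -0.64).

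The main question of the study, whether flight and BuOE change expression, was then put to Cpne7 in CA beside its relatives. Cpne7 measured 143, 147 and 322 Q3-normalized counts in the 3 GC-SAL mice and 56.5, 84.2 and 98.5 in the FLT-SAL mice. All FLT-SAL mice lay below all GC-SAL mice, and GC-SAL mouse 3 stood apart, at more than the sum of the others. With BuOE the order was turned: Cpne7 measured 103, 85.4 and 173 in GC-BuOE and 254, 216 and 256 in FLT-BuOE, again without overlap. These values rest on 48 to 217 counts of the probe in each AOI. Group means were 204 ± 102 in GC-SAL, 79.7 ± 21.4 in FLT-SAL, 121 ± 46.3 in GC-BuOE and 242 ± 22.2 in FLT-BuOE (SD, n = 3 mice each).

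The saline comparison chose the gene and is not tested. Its log2 fold change was -1.27, and it was -0.89 without GC-SAL mouse 3 and between -1.47 and -1.05 without each of the other 5 mice. Other comparisons in CA that use the same mice are likewise given as values, with log2 fold changes of 1.62 for FLT-BuOE over FLT-SAL and -0.71 for GC-BuOE over GC-SAL. The last, for which 0 of 9 copines were free of overlap (9.55% of all genes), became -0.33 without GC-SAL mouse 3.

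FLT-BuOE against GC-BuOE shares no mouse with the comparison that chose the gene, and it was tested, although the spread came from all 4 groups, saline mice included. Of the 9 copines 1 was called, Cpne7, where 0.0444% of all genes (7 of 15782) were called. Its log2 fold change was 1.06, a 2.09-fold higher level in flight (SE 0.20, interval 0.66 to 1.46, adjusted p = 0.010, limma with Benjamini-Hochberg adjustment). With the BuOE groups fitted alone the adjusted p was 1.1e-04 (limma). The call depends on how the spread is estimated. The SD of Cpne7 within groups in CA was 0.47 on the log2 scale, larger than that of 94.5% of genes, and limma moderated it to 0.24, toward the trend of all genes. With the own SD of each gene the unadjusted p of Cpne7 was 0.025 and its adjusted p 0.67, and 0 of all genes were called. With robust moderation, which lets variable genes keep their spread, its adjusted p was 0.58 and 6 genes were called (limma). DESeq2 gave a log2 fold change of 1.01 and an adjusted p of 1.00, and edgeR 0.98 and 2.7e-05. Without GC-BuOE mouse 1 or 2, or FLT-BuOE mouse 1 or 3, the fold change was 0.98, 0.85, 1.02 and 1.02 and the adjusted p 0.073, 0.11, 0.10 and 0.11 (limma).

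The relatives of Cpne7 had smaller differences in the same AOIs. In saline mice their log2 fold changes in flight ran from -0.33 (Cpne8) to 0.20 (Cpne9), with 12.9% of all genes free of overlap and 2 of the 9 copines, Cpne7 and Cpne8. Cpne8 measured 47.7, 40.02 and 54.8 in GC-SAL and 35.3, 38.0 and 38.5 in FLT-SAL. Cpne6, which also was highest in GC-SAL mouse 3 at 127, measured 96.98 and 91.5 in the other GC-SAL mice and 65.9, 104 and 106 in FLT-SAL, so its groups overlapped. In BuOE mice the other 8 ran from -0.72 (Cpne4) to 0.18 (Cpne2) and none was called (smallest unadjusted p = 0.068, Cpne4, limma). Cpne4 measured 10.5, 28.0 and 23.8 in GC-BuOE and 15.2, 13.3 and 6.96 in FLT-BuOE, none of them over 1.5 times the negative control. Cpne9 did not overlap, at 29.5, 28.0 and 33.5 in GC-BuOE and 23.5, 23.7 and 22.6 in FLT-BuOE (log2 fold change -0.37, interval -0.92 to 0.19), where 11.3% of all genes did not overlap.

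**Figure D3:**
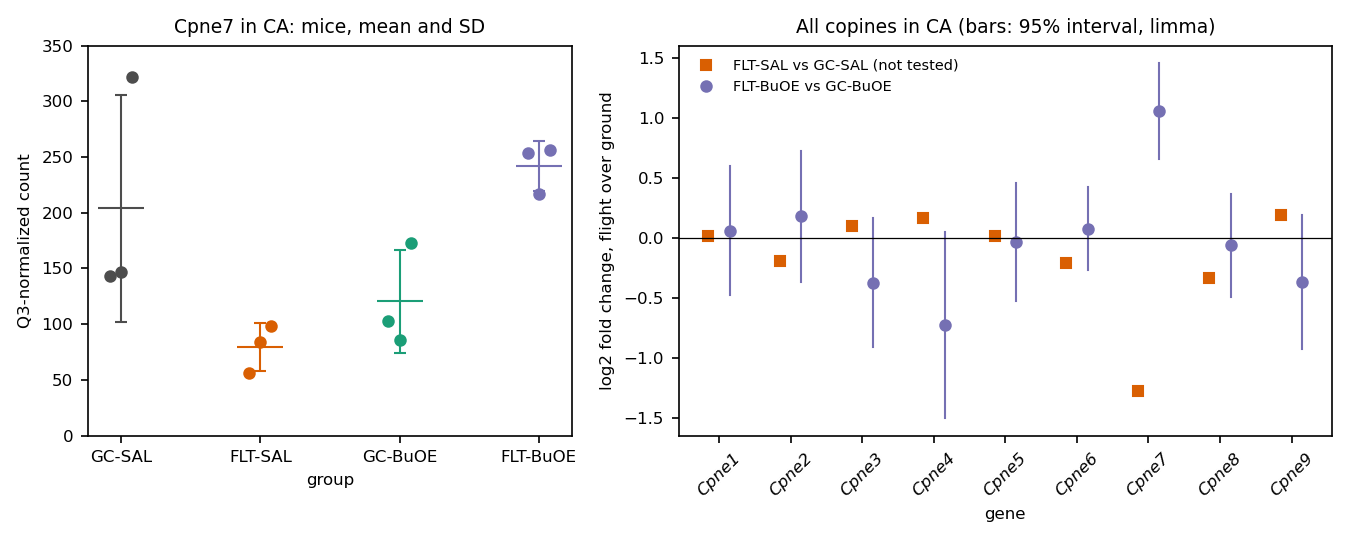
Left, Q3-normalized counts of Cpne7 in CA for each mouse, with the mean and SD of each group of 3. Right, log2 fold change of flight over ground for the 9 copines in CA, in saline mice (squares, without a test) and in BuOE mice (circles, with 95% intervals from limma). Cpne7 is at -1.27 in saline mice and 1.06 in BuOE mice, and the other copines lie between -0.72 and 0.20.

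Some measures of the CA sections moved with the groups. The summed level of the 5 CA1 pyramidal markers was 391 to 450 in GC-SAL, 541 to 586 in FLT-SAL, 402 to 510 in GC-BuOE and 466 to 510 in FLT-BuOE, and that of 6 neuronal markers was 580 to 684, 814 to 864, 574 to 736 and 686 to 756. Both were higher without overlap in FLT-SAL than in GC-SAL, the direction opposite to Cpne7, and both overlapped between the BuOE groups. The 7 GABAergic markers listed were also higher in FLT-SAL (232 to 267) than in GC-SAL (196 to 223). Those of CA2 (165 to 183 against 177 to 187), CA3 and dentate granule cells overlapped between the saline groups and between the BuOE groups. For 2 lists the BuOE groups did not overlap: microglia (7 listed markers, 223 to 239 in GC-BuOE and 197 to 219 in FLT-BuOE) and subiculum (Slc17a6 and Nts, 53.0 to 62.7 and 30.4 to 51.9). The subiculum markers stayed under 1.5 times the negative control in their means over CA. AOIs of CA held 250 to 340 nuclei, with overlap among all groups. Their area was 151322 to 181286 in GC-BuOE and 124517 to 142813 in FLT-BuOE, without overlap. The negative control was 18.9 to 20.9 and 16.1 to 18.8 in these groups, also without overlap. Both measures overlapped between the saline groups. Probe counts were 370066 to 483270 in GC-SAL and 603927 to 948561 in FLT-SAL, without overlap, and overlapped between the BuOE groups. Among the 75 marker genes, Grik4 (r = 0.71) and Rgs14 (r = 0.66), both near background, followed Cpne7 most closely over the 12 AOIs, and Pou3f1 ran most against it (r = -0.73). The 5 CA1 markers did not run one way, from Pou3f1 to Man1a (r = 0.60). The part of these measures in the Cpne7 values was not tested.

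Within the 12 AOIs of CA alone, the genes most like Cpne7 were Pea15a (r = 0.94), a phosphoprotein abundant in astrocytes, Cd200r3 (r = 0.89), Btnl1 (r = 0.83), Map3k5 (r = 0.81), the stress kinase ASK1, and Mroh5 (r = 0.81), out of 9430 genes above background. Pea15a ran from 76.5 to 103 in FLT-SAL, from 99.1 to 145 in GC-SAL, from 92.7 to 112 in GC-BuOE and from 132 to 145 in FLT-BuOE. The other 4 had means of 29.5 to 33.0 in CA, little above the limit for comparison, which was 1.5 times the negative control. Of the copines, Cpne6 was the nearest to Cpne7 within CA (r = 0.62), although over the 48 AOIs the pair had r = 0.12.

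In the other 3 regions no copine was called for flight or BuOE. In DG 0 of 9 were called for flight in saline mice (0.266% of all genes were called), for BuOE in flight mice (0%), for BuOE in ground mice (0%), for flight in BuOE mice (0.108%) and for the interaction of flight and BuOE (0%). In FCT the counts were 0 of 9 in each, with 0.0507%, 0.0317%, 0.00634%, 0.019% and 0.00634% of all genes, and in CT likewise 0 of 9, with 0.0887%, 0.0697%, 0%, 0.0127% and 0.019%. These counts are from limma, and edgeR and DESeq2 also called 0 in each. At an unadjusted p below 0.05, limma counted 1 copine in each of the 5 comparisons in DG. In FCT it counted 0, 1, 1, 1 and 0, and in CT 2, 2, 0, 0 and 1, in the same order. Over the 15 comparisons the share of all genes at this level was 3.78% to 8.24%.

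In DG, FCT and CT flight and ground mice overlapped in Cpne7. In DG it measured 35.9, 33.5 and 30.02 in GC-SAL and 20.0, 24.9 and 35.0 in FLT-SAL, and 21.1, 32.5 and 34.5 in GC-BuOE against 16.7, 40.02 and 31.1 in FLT-BuOE. In FCT the values were 42.1, 69.1 and 67.1 in GC-SAL and 34.3, 46.5 and 80.9 in FLT-SAL, with 72.5, 68.2 and 63.7 in GC-BuOE and 52.9, 77.4 and 52.5 in FLT-BuOE. In CT they were 32.7, 33.7 and 37.2 in GC-SAL, 52.4, 50.5 and 33.4 in FLT-SAL, 28.6, 41.4 and 27.7 in GC-BuOE and 32.3, 33.4 and 43.9 in FLT-BuOE. The log2 fold changes of FLT-BuOE over GC-BuOE were -0.06 in DG (interval -0.55 to 0.43), -0.18 in FCT (-0.60 to 0.24) and 0.17 in CT (-0.22 to 0.56), beside 1.06 in CA. The difference between regions in this effect was not tested. GC-SAL mouse 3, the highest in CA, was the lowest GC-SAL mouse in DG, the middle one in FCT and the highest in CT.

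Cpne6 was lower in FLT-SAL than in GC-SAL in DG and CT without passing the adjusted test. In DG it measured 153, 170 and 190 in GC-SAL and 133, 142 and 142 in FLT-SAL (log2 fold change -0.29, interval -0.56 to -0.03, adjusted p = 0.61, limma), and in CT 37.6, 38.1 and 54.9 against 29.1, 29.5 and 27.2 (-0.57, interval -1.005 to -0.13, adjusted p = 0.82). The groups did not overlap in either region. Such a lack of overlap was seen for 3 of 9 copines in DG (Cpne4, Cpne5 and Cpne6), where 14.8% of all genes did not overlap, and for 1 of 9 in CT (10.4%). In CT the GC-BuOE mice, at 29.7, 36.7 and 28.5, also lay below all GC-SAL mice (1 of 9 copines and 8.2% of all genes). With BuOE, Cpne6 overlapped between flight and ground in both regions.

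Cpne8, Cpne9, Cpne4, Cpne5 and Cpne1 gave the other values at an unadjusted p below 0.05. Cpne8 in DG measured 21.7, 10.0 and 8.89 in FLT-BuOE, of which 10.0 and 8.89 lie within or below the range of the negative control there. It measured 26.7, 17.5 and 24.5 in GC-BuOE (log2 fold change -0.80, adjusted p = 0.40, limma) and 20.0, 17.2 and 22.9 in FLT-SAL (-0.63, adjusted p = 0.79). Cpne9 in FCT measured 60.03, 32.0 and 26.3 in FLT-BuOE and 26.9, 18.6 and 24.7 in FLT-SAL (0.66, adjusted p = 0.45), and FLT-BuOE mouse 1 carried much of it, since the value was 0.31 without that mouse. Cpne9 in CT ran the same way, with 64.6, 46.7 and 38.5 in FLT-BuOE and 38.6, 26.5 and 38.0 in FLT-SAL (0.51, adjusted p = 0.66), and it was lower in FLT-SAL than in GC-SAL, at 49.7, 49.6 and 36.3 (-0.39, adjusted p = 0.95). In FCT it was 36.8, 25.9 and 27.3 in GC-BuOE and 21.1, 18.8 and 22.4 in GC-SAL, without overlap (0.50, adjusted p = 0.87, where 1 of 9 copines and 10.8% of all genes did not overlap). Cpne4 in DG measured 52.4, 46.5 and 41.0 in GC-SAL and 32.2, 32.5 and 37.8 in GC-BuOE, without overlap (1 of 9 copines and 9.76% of all genes, -0.43, adjusted p = 0.90). The interaction of flight and BuOE was 0.60 for Cpne4 in DG (adjusted p = 0.74) and 0.62 for Cpne9 in CT (adjusted p = 0.99). Cpne5 in CT measured 31.0, 35.6 and 56.2 in FLT-BuOE against 65.5, 49.0 and 53.4 in FLT-SAL (-0.48, adjusted p = 0.73), and Cpne1 in FCT 11.4, 31.1 and 32.5 in FLT-BuOE against 30.3, 36.3 and 36.4 in GC-BuOE (-0.57, adjusted p = 0.61), where the value was -0.10 without FLT-BuOE mouse 1. None of these passed the adjusted test, and their direction was kept without each mouse in turn.

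**Figure D4:**
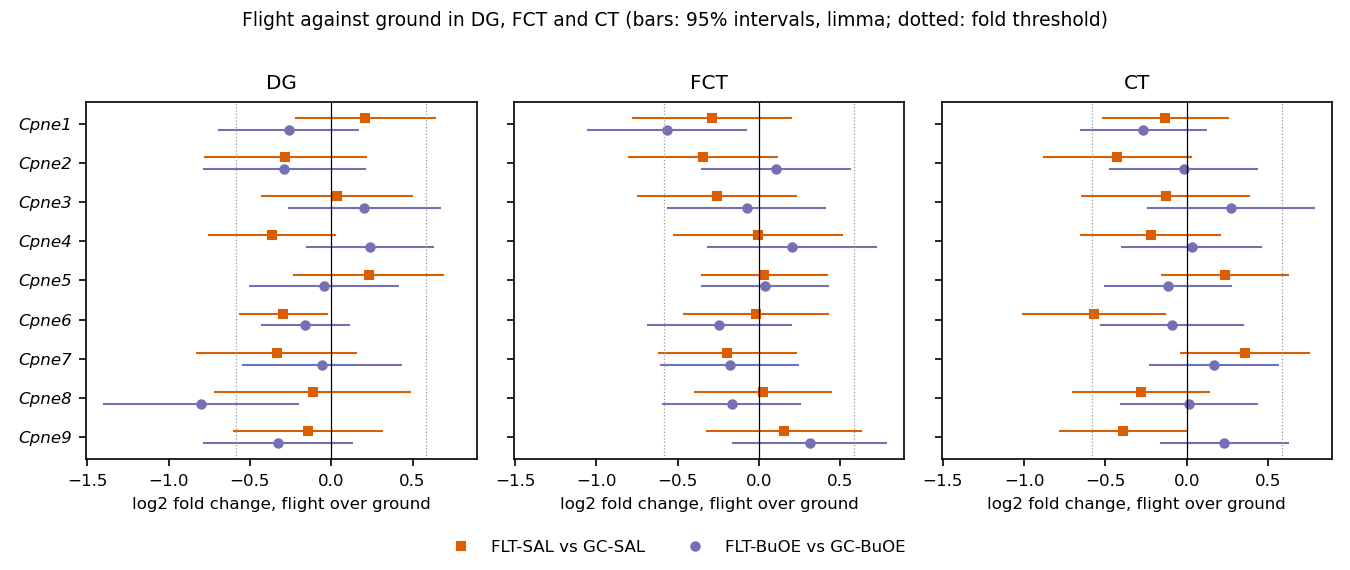
Log2 fold change of flight over ground (x axis) for the 9 copines in DG, FCT and CT, in saline mice (squares) and BuOE mice (circles), with 95% intervals from limma and dotted lines at the 1.5-fold threshold. No point passed an adjusted p below 0.05, and Cpne8 in DG of BuOE mice lies farthest from 0 at -0.80.

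Genes related to copines by domain or by pathway were read from a pair of lists. The first held C2-domain calcium sensors (synaptotagmins, Doc2 proteins, Rims, Munc13 proteins and others), of which 30 of 34 were listed. The second held genes assigned to the spine pathway of copine 6, all 10 of them listed. These were Rac1, Pak1, Pak3, Limk1 and the cofilin gene Cfl1 of the actin pathway, with Tiam1, Bdnf, its receptor gene Ntrk2, Camk2a and Camk2b. For flight and BuOE the lists held 1 call each, both in DG of saline mice, where 0.266% of all genes were called. Syt7, a calcium sensor of slow synaptic release, rose by 0.82 (SE 0.12, adjusted p = 2.1e-04, limma), and Camk2b, a subunit of CaM kinase II, by 0.59 (SE 0.13, adjusted p = 0.017), just past the fold threshold. Both calls were lost with the own spread of each gene, with which 0 of all genes were called there. In CA, FLT-BuOE against GC-BuOE, limma called 0 of 30 and 0 of 10, where 0.0444% of all genes were called, and 3 of 30 and 3 of 10 had an unadjusted p below 0.05, as 7.52% of all genes did. Between regions the lists held more, except for CT against FCT, where 0 of 30 and 0 of 10 were called, beside 0.101% of all genes. In CT against DG, 10 of 30 C2-domain genes (7 higher and 3 lower) and 6 of 10 spine genes (4 higher and 2 lower) were called, where 5.79% of all genes were called, with medians of 0.23 and 0.10 beside a median of 0.0018 for all genes. Doc2b was lower in CT than in DG by 2.20 on the log2 scale (SE 0.11) and Camk2b by 1.48 (SE 0.07), as Cpne6 was, while Pak1 was higher by 1.30 (SE 0.09). In DG against CA, 7 of 30 (4 higher and 3 lower) and 2 of 10 (both higher) were called, where 4.1% of all genes were called, among them Tiam1, an activator of Rac1, higher in DG by 1.84 (SE 0.10).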

How the data were processed

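The authors turned the sequenced tags into counts with GeoMx NGS Pipeline 2.3.4 (per the file headers), which removes duplicate reads of a tag, and deposited the counts of 20175 probes for each AOI. The authors then scaled each AOI to its upper quartile and deposited this Q3-normalized signal for 15782 genes, 1 table per region. Columns of per-sample values left unused numbered 0. The 12 deposited tables of the authors' own comparisons (fold changes and p-values) were not used.

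Values were tested by limma 3.58.1 in R 4.3.3 on log2(Q3 + 1), with a mean-variance trend, 4 groups in 1 fit within a region and the mouse as a block between regions, and Benjamini-Hochberg adjustment over all genes. The interaction was called by the adjusted p alone. Fold changes on this scale understate those of low genes. Dividing by the step between values gave whole counts for 99.98% of values (within 0.02 of a count), and 15777 genes matched exactly 1 probe. edgeR 4.0.16 and DESeq2 1.42.0 were run on those counts as alternatives, with other pseudocounts (0.5 and 10), a filter at 1.5 times the negative control, background subtraction, other blocks, subsets of groups and each mouse left out. The fits were tested on simulated data. Robust moderation and the own spread of each gene were added after the data had been seen. The AOI is 1 mouse in a region, and mice on a slide are separate animals. Same-numbered mice of different groups are different animals, and regions of a mouse are paired by its section.

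The members and the gene lists were chosen with earlier results of these data known. Named in the text are the 9 copines, for each the 3 genes (for Cpne7 in CA the 5) with the highest correlation, called members of the lists and at most 4 others, and markers that check the region labels. Depth per AOI limits low genes most: the copine probes had medians of 26 to 59.5 counts over the 48 AOIs. One member of the list of C2-domain genes entered its counts but is not reported by name here.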

Additional observations from a re-analysis of the deposited data

Results flagged for a closer look

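Cpne7 in CA differed in direction between the saline and the BuOE mice. Every FLT-SAL mouse lay below every GC-SAL mouse, and every FLT-BuOE mouse lay above every GC-BuOE mouse. Of all genes in CA, 12.9% were free of overlap in the saline comparison and 11.3% in the BuOE comparison. The share of genes that were so in both and in opposite directions was not counted. The effects of flight, -1.27 in saline mice and 1.06 in BuOE mice, differed by 2.33 on the log2 scale. This difference was not tested, because the saline values chose the gene. It was between 1.95 and 2.63 without each of the 12 mice, and between 2.19 and 2.77 under other pseudocounts, background subtraction and other scalings of the counts. The sections of a group lay on 1 slide, so slide and group cannot be told apart. No group had the 4 samples that a search for single outlying mice needs, so GC-SAL mouse 3, at 322 against 143 and 147, was not tested.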

How the results depend on the processing

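Within regions, 342 of 349 counts of copines called under an alternative were the same as in the report. The other 7 concern Cpne7 in CA, FLT-BuOE against GC-BuOE, where 1 copine was called and 0 with robust moderation, with the own spread of each gene or with DESeq2, and 0 to 1 without each mouse. Between regions, 131 of 144 counts were within 1.5 times those of the report. Background subtraction raised the counts to 8 (DG and CA, 3 in the report), 5 (FCT and CA, 2 in the report) and 6 (CT and CA, 3 in the report), in fits where it also called 8121, 4101 and 3565 of all genes (647, 517 and 628 in the report). A pseudocount of 10 lowered the counts to 2 (FCT and DG), 1 (CT and DG) and 0 (CT and FCT), since it shrinks differences of low genes under the fold threshold. With only SAL mice CT and DG had 2, and CT and FCT had 1 with robust moderation, the own spread, DESeq2 or only BuOE mice and 1 to 2 without each mouse, the cause of which was not tested. Counts over all genes within regions moved by more than 1.5 times under many alternatives, for FLT-BuOE against GC-BuOE in CA from 7 to 20 with edgeR, 15 with the replicate block, 1 with DESeq2 and 0 with the own spread. No direction was reversed in 1026 values of single copines. Of the copines, the filter on low values removed none between regions and, within regions, Cpne4 in CA. Over all genes it left 13052 of 15782 in CA.

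Replicate numbers pair no mice within a region, since the groups are different animals. Same-numbered mice of different groups had a median correlation of 0.02 in their deviations from the group means (-0.18 to 0.12, 72 pairs). Regions of the same mouse also had a median of 0.02 (-0.02 to 0.22, 72 pairs), so this measure cannot tell pairs from other samples. With the replicate block 1 copine was called in CA and 0 in the other 15 comparisons within regions, as without it. Between regions, no replicate block or the mouse as a random effect gave the same counts (3, 2, 3, 4, 4 and 2). By Spearman correlation, 11 of the 32 nearest genes stayed in their lists, from 0 of 3 for Cpne1, Cpne3 and Cpne6 to 2 of 3 for Cpne5, Cpne8 and Cpne9. Groups of 3 mice and copine probes with median counts of 26 to 59.5 limit what could be seen.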
